A study of Brassica napus with 12 samples.

Results

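The 200 transcript IDs whose ribosome-bound mRNA varied most between replicate libraries of the same group were described in leaves of canola (Brassica napus). An ID is the authors' own identifier of a transcript, written with the prefix ERF or ERC or as a joined pair of both, and none carried a gene name. The members were chosen on measured values. Counts were divided by the column total and scaled to CPM, counts per 1000000 counts, and the base-2 logarithm of CPM + 0.5 was taken. Within each of the 5 groups the variance of that log2 value was computed, and the mean of the 5 variances ranked the IDs. Of 60756 IDs, 7065 had a mean of at least 20 CPM. The 100 most abundant IDs were left out, as were 141 IDs that were higher than their control in every library of all selected lines. Among the 6824 IDs that were left, the 200 with the largest mean variance became members.

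Canola lines selected for low respiration and a high content of NAD(P)H, called epilines, were grown beside control lines in a PEG and an EUE experiment. In the PEG experiment the epilines PEG-1 and PEG-2 share 1 control line, and each of these 3 groups has 2 libraries. In the EUE experiment 1 epiline and a control line of its own have 3 libraries each. All plants were of the same form (f. biennis), received no treatment, spent 2 weeks on agar with sucrose and 12 days in soil, and gave leaf 4 at 26 days. The labels call the libraries biological replicates, but they do not say how many plants went into a library or what a replicate number stands for, so p-values measure the spread between these libraries, which may in part be technical. Each epiline stands for 1 selected line. Which conditions of selection PEG and EUE refer to is not given in the sources used here.

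Polysomes are strings of ribosomes on a messenger RNA, and pelleting them through sucrose collects transcripts that are being translated. A polysomal level therefore depends on the amount of a transcript and on how much of it is loaded with ribosomes. In leaves both are known to follow light, the time of day and water status. No record of these was analysed here. In bulk leaf RNA, fewer cells that express a transcript and less of it per cell cannot be told apart. Canola is a polyploid, and many of its genes have near-identical copies. How reads were shared between such copies is not given in the sources used here, so the level of any single ID is uncertain to that extent.

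The 12 libraries held between 36210542 and 42696798 counts. Every value was even, and a read pair may have been counted as 2. Replicates of 1 group differed by far more than sampling noise, with a chi-square per ID of 15.4 to 50.5 on halved counts. The members took 1.00% to 1.34% of the counts in 10 of the libraries, 1.63% in EUE epiline replicate 2 and 1.95% in EUE control replicate 2. The median member stood at 79.7 CPM in EUE control replicate 2 and at 65.01 CPM in EUE epiline replicate 2. In the other 4 EUE libraries it stood between 26.0 and 34.5 CPM. Within the PEG experiment it was 37.3 CPM in control replicate 1 and 32.7 CPM in PEG-2 replicate 1, against 14.2 to 18.1 CPM in the other 4 libraries. These 4 libraries with high members stood apart on the values that chose the members, while the median over all 7065 IDs ran only from 35.8 to 41.3 CPM.

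The members were of ordinary abundance. Their mean level ran from 20.05 to 851 CPM with a median of 36.2 CPM, against a median of 38.9 CPM for all 7065 IDs. No member was at 0 in any library, the lowest single value was 0.106 CPM (4 counts) and the highest was 1999.6 CPM. Sampling of read pairs alone would give a median variance of 0.00299 on the log2 scale, covering counting error only. The members' own variance had a median of 0.830, against 0.0578 for all 7065 IDs, and the median member exceeded its counting variance by 298-fold.

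The spread was uneven over the groups. The higher PEG control library exceeded the lower one by a median of 3.14-fold over the members, against 1.24-fold over all 7065 IDs. The medians and counts over the 5 groups given here are ratios of CPM + 0.5, while ratios of single members and of sets with a shared pattern, given further on, are of CPM itself. The EUE control had a median ratio of 3.92 between its highest and lowest library and the EUE epiline one of 3.41, where all IDs had 1.40 in both groups. PEG-2 had a median ratio of 2.02 against 1.14 for all IDs. PEG-1 was the most even group, with 1.37 against 1.12. A gap of 2-fold or more was present for 178 members in the PEG control, 172 in the EUE control, 165 in the EUE epiline, 103 in PEG-2 and 42 in PEG-1. Groups of 3 have more room for a gap than groups of 2, so the EUE and PEG ratios are not on equal terms.

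**Figure D1:**
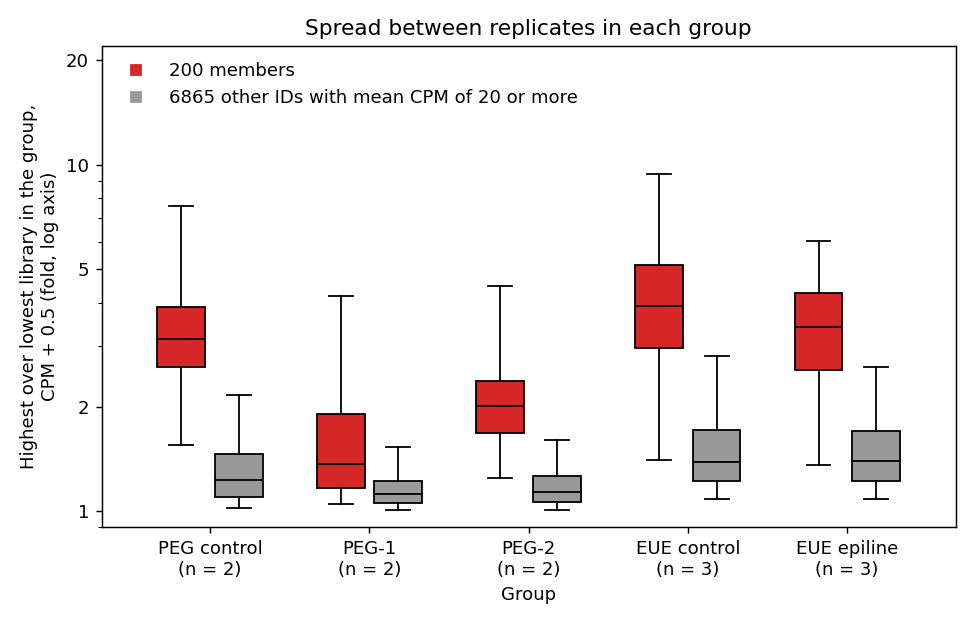
Ratio of the highest to the lowest library within each group, in CPM + 0.5 on a log axis, for the 200 members (red) and the 6865 other IDs with a mean of 20 CPM or more (grey). Boxes span the quartiles with the median as a line, and whiskers span the 5th to the 95th percentile; the members' median is 3.14 in the PEG control, 1.37 in PEG-1 and 3.92 in the EUE control.

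Most members varied in several groups and not in a single one. Replicates differed by 2-fold or more in 3 groups for 92 members, in 4 groups for 70, in 2 groups for 22, in all 5 groups for 11 and in 1 group for 5. Over all 7065 IDs, 74.2% had such a gap in no group. The group with the largest variance was the PEG control for 103 members, the EUE control for 66, the EUE epiline for 17 and PEG-1 and PEG-2 for 7 each. The PEG control contributed 33.6% of the members' summed variance and PEG-1 8.68%. The rule averages over groups, so these shares describe the choice and are not a test.

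The threshold of the rule fell inside a smooth run of values. The last 2 members inside it were ERF61660-ERC52144, with a mean variance of 0.631, and ERF88432-ERC28564, with 0.6287. The first 2 IDs outside it were ERC61095, with 0.6283, and ERF67967-ERC29136, with 0.6279. At the other end ERF81607-ERC56326 had 6.20 and ERF81692-ERC28464 had 5.12.

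ERF81607-ERC56326, the member with the largest variance, switched between 2 levels by replicate number. It stood at 81.6 and 9.09 CPM in PEG control replicates 1 and 2, at 94.6 and 10.4 CPM in PEG-1, and at 72.2 and 9.22 CPM in PEG-2. In the EUE control it stood at 1.99, 1.30 and 95.9 CPM in replicates 1, 2 and 3, and in the EUE epiline at 3.56, 2.59 and 82.1 CPM. Replicate 1 was therefore high in all 3 PEG groups and replicate 3 in both EUE groups, and the 5 high libraries did not overlap the 7 low ones. The ratio of high to low was 73.6 in the EUE control and 31.7 in the EUE epiline, and between 7.82 and 9.09 in the PEG groups. The 2 members whose deviations over the 12 libraries were most alike were ERF71820-ERC50389, with a Pearson r of 0.994, and ERF93581-ERC34880, with 0.955. Their levels come from the same 12 libraries and share their depth.

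ERF71820-ERC50389 stood at 149 and 34.2 CPM in the PEG control, at 122 and 29.0 CPM in PEG-1 and at 127 and 32.7 CPM in PEG-2. Its EUE control levels were 29.2, 24.9 and 196 CPM, and those in the EUE epiline were 35.7, 29.7 and 206 CPM. The same 5 libraries were high, again without overlap with the other 7. Unlike ERF81607-ERC56326, its low level was nearly alike in both experiments.

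ERF81692-ERC28464, the second in variance, had another pattern. It stood at 136 and 2.27 CPM in the PEG control, at 11.3 and 2.82 CPM in PEG-1 and at 59.1 and 4.69 CPM in PEG-2. In the EUE control it stood at 47.8, 168 and 76.4 CPM, and in the EUE epiline at 32.6, 144 and 63.1 CPM. Replicate 1 was the higher one in every PEG group, by 59.8-fold in the control, while replicate 2 was the highest and replicate 1 the lowest in both EUE groups.

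In some members most of the variance lay in the PEG experiment. ERF72871 stood at 12.7 and 196 CPM in the PEG control, at 21.7 and 179 CPM in PEG-1 and at 18.3 and 296 CPM in PEG-2. Levels in the EUE control were 2.80, 1.90 and 3.04 CPM, and those in the EUE epiline were 5.21, 2.94 and 2.93 CPM. It was thus high in replicate 2 of every PEG group and low in all 6 EUE libraries. ERF72871 and ERC40835 passed the minimum of 20 CPM through the PEG libraries alone. At their EUE levels the 0.5 CPM added before the logarithm lowers the variance. ERC40835 had the same shape as ERF72871, although its EUE epiline libraries differed by 2.86-fold. It stood at 8.60 and 131 CPM in the PEG control, at 12.9 and 122.9 CPM in PEG-1 and at 9.30 and 113 CPM in PEG-2, and between 1.20 and 3.56 CPM in the EUE libraries.

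**Figure D2:**
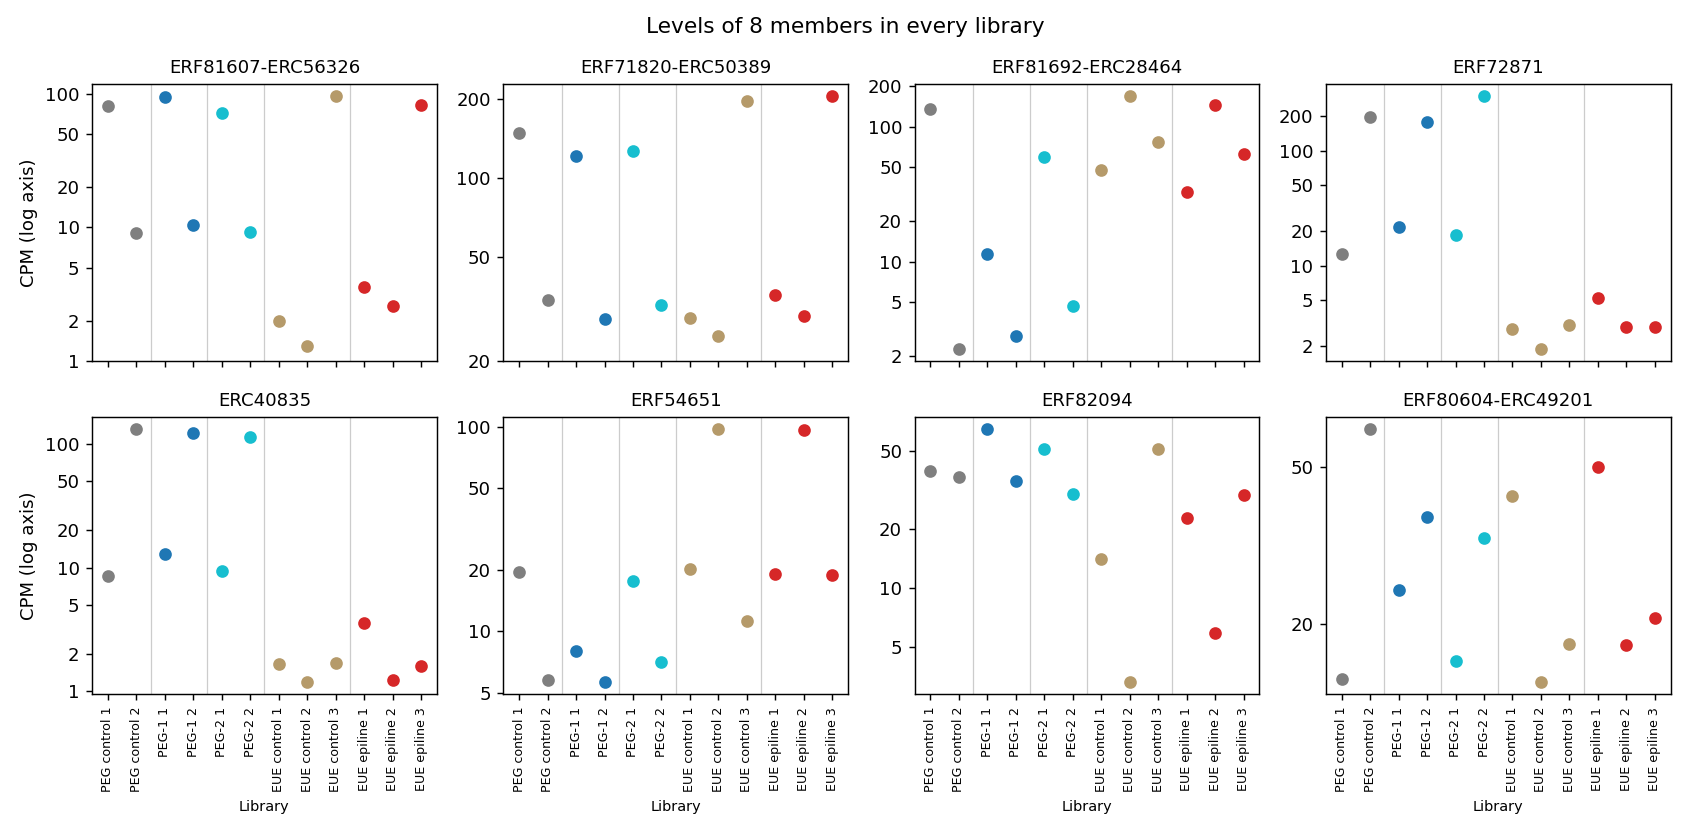
Level in CPM (log axis, its range set for each panel) of 8 members in each of the 12 libraries, 1 point per library, coloured by group and with the replicate number on the horizontal axis. ERF81607-ERC56326 and ERF71820-ERC50389 are high in replicate 1 of the PEG groups and replicate 3 of the EUE groups, while ERF72871 and ERC40835 are high in replicate 2 of the PEG groups.

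Within the PEG experiment replicate 1 was the higher library for most members. It exceeded replicate 2 for 157 members (78.5%) in the control, 136 (68%) in PEG-1 and 162 (81%) in PEG-2, where 50.8%, 47.7% and 64.5% of all 7065 IDs did so. Replicate 1 was the higher one in all 3 groups for 129 members (64.5%, against 30.3% of all IDs) and replicate 2 in all 3 for 33 (16.5%, against 22.5%). The other 38 had no common direction, and in 27 of them PEG-1 alone ran opposite to the control and PEG-2, with PEG-1 replicate 2 the higher one in 25 and replicate 1 in 2.

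Within the EUE experiment replicate 2 was the highest library for most members. It was the highest of the 3 for 151 members (75.5%) in the control and 139 (69.5%) in the epiline, where 34.2% and 29.0% of all IDs had it highest. Replicate 2 was highest in both groups for 131 (65.5%, against 22.3% of all IDs), replicate 3 for 17 (8.5%, against 24.6%) and replicate 1 for 10 (5%, against 19.1%). In the remaining 42 the groups differed.

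Replicate 1 in PEG and replicate 2 in EUE were high together for many members. The rule chose the members on these deviations between replicates. Their shares beside those of all IDs, here and within each experiment above, describe the choice and are not a test. For 104 members (52%) replicate 1 was higher in all 3 PEG groups and replicate 2 was highest in both EUE groups, a pattern held by 11.0% of all 7065 IDs. Of the 131 members with EUE replicate 2 highest in both groups, 104 (79.4%) had PEG replicate 1 higher in all 3 groups and 1 had the reverse. Among all 1577 IDs with EUE replicate 2 highest in both groups, 49.1% had PEG replicate 1 higher in all 3 groups and 4.95% the reverse. The share of 52% became 64% when either PEG-1 library, and so that group's pair, was left out, and it was 52% without the PEG control pair. Leaving out a library only loosened the pattern for the same members, so the share could not fall. No share of all IDs under the looser pattern is given.

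These 104 members were grouped by this pattern, so their likeness in it is by definition. Their median level was 35.2 and 10.4 CPM in PEG control replicates 1 and 2, 14.9 and 11.9 CPM in PEG-1, and 28.0 and 13.1 CPM in PEG-2. In the EUE control the median was 26.5, 88.6 and 25.3 CPM in replicates 1, 2 and 3, and in the EUE epiline 23.7, 78.1 and 32.3 CPM. Replicate 1 exceeded replicate 2 by a median of 3.35-fold in the PEG control, with a range over the 104 from 1.46 to 59.8. The median was 2.11-fold in PEG-2 and 1.30-fold in PEG-1. EUE replicate 2 exceeded the mean of replicates 1 and 3 by a median of 3.43-fold in the control and 2.68-fold in the epiline. ERF54651, the member in which EUE number 2 stood highest above the others, belongs here. It stood at 20.1, 97.2 and 11.2 CPM in the EUE control and at 19.0, 96.5 and 18.9 CPM in the EUE epiline. Its PEG levels were 19.5 and 5.76 CPM in the control, 8.01 and 5.65 CPM in PEG-1 and 17.5 and 7.07 CPM in PEG-2.

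**Figure D3:**
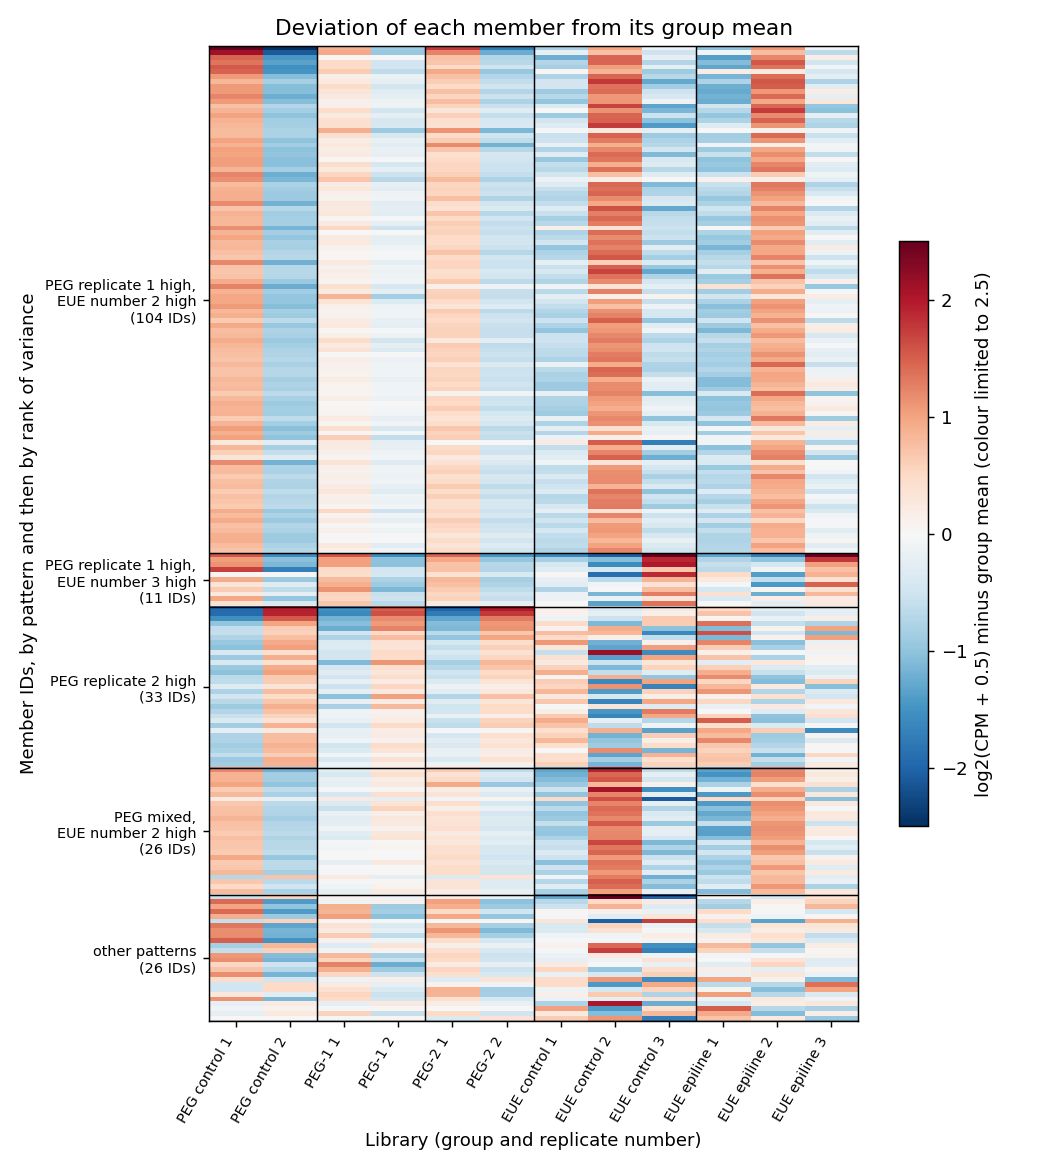
Deviation of log2(CPM + 0.5) from the group mean for each of the 200 members (rows) in each of the 12 libraries (columns), grouped by which replicate numbers are high. The block of 104 members is high in replicate 1 of the PEG groups and in replicate 2 of the EUE groups, with PEG-1 paler than the PEG control.

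A further 26 members had EUE replicate 2 highest in both groups without a common PEG direction. In PEG-2 replicate 1 over replicate 2 had a median ratio of 1.67, against 2.11 in the 104. It was 2-fold or more in 3 of the 26, against 69 of the 104. These 26 differed most from the 104 in PEG-1. Their median level was 38.5 and 13.1 CPM in the PEG control and 34.5 and 19.97 CPM in PEG-2, but 16.2 and 20.1 CPM in PEG-1, where replicate 1 over replicate 2 had a median ratio of 0.777. In EUE replicate 2 they exceeded the mean of the others by a median of 3.95-fold in the control and 2.71-fold in the epiline. ERF60384, the member in which EUE number 1 stood lowest, is one of them. It stood at 30.4 and 7.40 CPM in the PEG control, at 6.56 and 9.15 CPM in PEG-1 and at 35.1 and 8.95 CPM in PEG-2. In the EUE control it stood at 31.4, 106 and 65.1 CPM and in the EUE epiline at 39.9, 91.5 and 89.8 CPM, so that replicates 2 and 3 were nearly level in the epiline.

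The pattern of ERF81607-ERC56326, with PEG replicate 1 and EUE replicate 3 high, was held by 11 members (5.5%, against 6.398% of all IDs). In this small set PEG-1 was as uneven as the other PEG groups. Replicate 1 exceeded replicate 2 by a median of 3.63-fold in the PEG control, 3.04-fold in PEG-1 and 2.73-fold in PEG-2. EUE replicate 3 exceeded the mean of replicates 1 and 2 by a median of 3.66-fold in the control and 2.09-fold in the epiline. ERF82094, the member in which EUE number 2 stood lowest, was at 14.0, 3.31 and 50.9 CPM in the EUE control and at 22.6, 5.87 and 29.7 CPM in the EUE epiline. In the PEG groups it was at 39.5 and 36.6 CPM in the control, 64.1 and 35.0 CPM in PEG-1 and 51.1 and 30.1 CPM in PEG-2, so its PEG replicates differed less than its EUE ones.

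The 33 members with PEG replicate 2 high in all 3 groups were more abundant, with a median mean level of 61.9 CPM against 31.6 CPM for the 104. Their median level was 41.1 and 131 CPM in the PEG control, 41.9 and 134 CPM in PEG-1 and 49.5 and 101.2 CPM in PEG-2. Replicate 2 exceeded replicate 1 by a median of 2.92-fold, 1.80-fold and 2.01-fold in these groups. In the EUE experiment 19 of the 33 had replicate 2 lowest in both groups, beside 45.9% of all IDs with the same PEG direction. The mean of EUE replicates 1 and 3 over replicate 2 had a median ratio of 2.09 in the control and 2.08 in the epiline. ERF80604-ERC49201, the member in which EUE number 1 stood highest, is one of the 33. It stood at 14.6 and 62.1 CPM in the PEG control, 24.5 and 37.4 CPM in PEG-1 and 16.1 and 33.0 CPM in PEG-2. The EUE control libraries had 42.1, 14.3 and 17.9 CPM and the EUE epiline libraries 49.8, 17.7 and 20.8 CPM. ERC40433, the member in which EUE number 3 stood lowest, is another. It was nearly level in the PEG groups, at 21.9 and 30.3 CPM in the control, 27.2 and 34.9 CPM in PEG-1 and 32.0 and 33.7 CPM in PEG-2. In the EUE control it was at 26.3, 36.6 and 7.40 CPM and in the EUE epiline at 24.3, 19.0 and 3.81 CPM, with replicate 3 low in both.

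The last 26 members fell into none of these sets. Among them, 13 had PEG replicate 1 higher in all 3 groups while the highest EUE number differed between the EUE groups. In 1 more, PEG replicate 1 was higher in all 3 groups and EUE replicate 1 was highest in both. The median levels of the 26 ran from 13.3 to 42.3 CPM in the PEG libraries and from 41.6 to 65.8 CPM in the EUE libraries. ERF88432-ERC28564, the last member inside the threshold, was not among them but among the 33, at 23.8 and 79.9 CPM in the PEG control and at 37.3, 10.7 and 36.5 CPM in the EUE control.

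How far deviations from the group mean moved together was described by Pearson's r over the 200 members, whose points share the same libraries and were chosen for their spread. Between the EUE control and the EUE epiline r was 0.868 for replicate 1, 0.791 for replicate 2 and 0.686 for replicate 3. Pairs of unlike number ran from -0.627 to 0.137. Over all 7065 IDs the same-numbered values were 0.700, 0.787 and 0.609. The deviations of a group sum to 0, so low values between unlike numbers follow in part from high values between like ones.

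In the PEG experiment the difference of replicate 2 from replicate 1 was correlated across groups. Over the members r was 0.860 between the control and PEG-2, 0.774 between PEG-1 and PEG-2 and 0.660 between the control and PEG-1. Over all IDs the values were 0.735, 0.570 and 0.557. The mean same-number r over members was 0.765 in PEG and 0.781 in EUE. The EUE value was 0.573 without EUE control replicate 2 and 0.513 without EUE epiline replicate 2. In each of these same-numbered pairs r over the members was above r over all IDs, in EUE replicate 2 by little, and no test was made of that difference.

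On the mean over groups, equal numbers ran opposite across the experiments. The mean difference of replicate 2 from 1 in PEG had an r of -0.491 with that in EUE over the members and of -0.535 over all IDs. With the EUE difference of replicate 3 from 1 it was -0.410 and -0.215, and with that of 3 from 2 it was 0.224 and 0.400. The first value was -0.326 without the PEG control pair and -0.600 without the PEG-1 pair. PEG control replicate 1 correlated with EUE epiline replicate 2 at 0.608 and with EUE control replicate 2 at 0.430. For PEG-2 replicate 1 these values were 0.374 and 0.324, and for PEG-1 replicate 1 they were 0.070 and -0.026. With replicate 1 of both EUE groups, PEG control replicate 1 had an r of -0.649. With replicate 1 of the EUE control and epiline, PEG-2 replicate 1 had -0.600 and -0.524, and PEG-1 replicate 1 had -0.214 and -0.185. For 133 members (66.5%, against 30.7% of all IDs) every PEG group moved one way from replicate 1 to 2 and both EUE groups the other way. For 10 members (5%, against 10.3%) all 5 groups moved the same way. As the rule chose the members on differences between replicates, nothing is read from these counts of members.

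**Figure D4:**
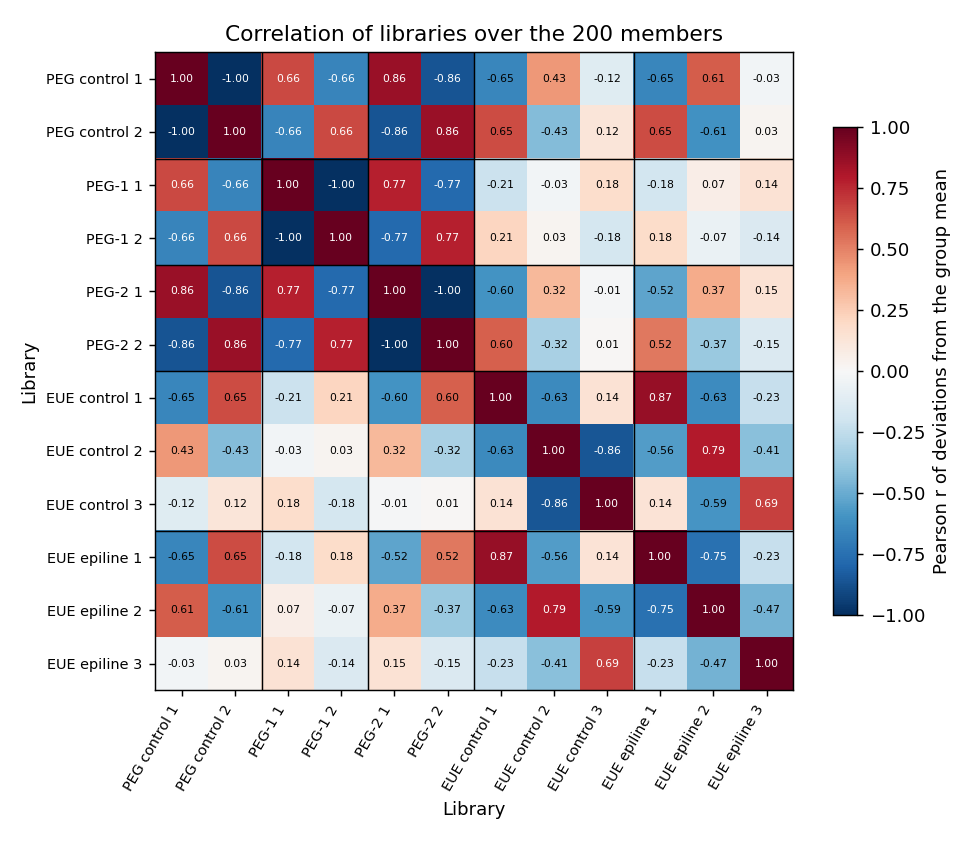
Pearson r over the 200 members between the deviations of log2(CPM + 0.5) from the group mean, for every pair of the 12 libraries. Same-numbered libraries of different groups within an experiment have r from 0.660 to 0.868; in a group of 2 the libraries mirror each other, so r between them is -1 by construction.

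**Figure D5:**
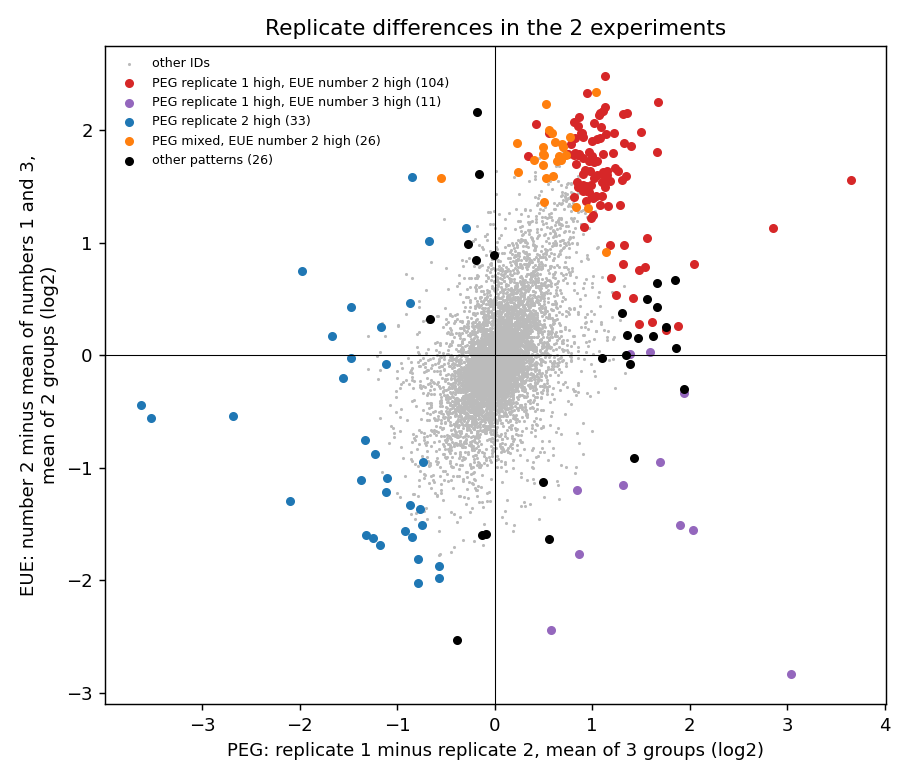
Log2 difference of replicate 1 from replicate 2, as a mean of the 3 PEG groups (horizontal), against that of replicate 2 from the mean of replicates 1 and 3, as a mean of the 2 EUE groups (vertical), with 1 point per ID and the members coloured by pattern. Over the members r is 0.377, against 0.495 over the other IDs with a mean of 20 CPM or more.

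A small number of directions held most of the spread. The first principal direction of the members' deviations took 66.8% of their variance and the second 19.9%. On the first, EUE control replicate 2 had a loading of 0.48, PEG control replicate 1 and EUE epiline replicate 2 of 0.38 each and PEG-2 replicate 1 of 0.23. EUE epiline replicate 1 had -0.31 and replicate 1 of the EUE control -0.24. On the second, EUE control replicate 3 had 0.51 and EUE control replicate 2 -0.44, while replicate 1 of all 3 PEG groups lay between 0.25 and 0.29. The directions were taken without centring over the members, so the first also holds their mean profile. Deviations that sum to 0 within each group limit how many directions there can be. The members were chosen for these deviations and no value over all IDs is given, so the shares are a description.

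Whether IDs that vary in 1 experiment also vary in the other was asked by ranking on the variance within each experiment alone. The other experiment's variance played no part in that ranking. The minimum of 20 CPM and the IDs left out were still set on all 12 libraries, so neither list is fully independent of the other experiment. Of the 200 IDs chosen in PEG, 108 (54%) lay above the 90th percentile of EUE variance, and their median variance in EUE was 0.527 against 0.0726 for all 7065 IDs. Of the 200 chosen in EUE, 142 (71%) lay above the 90th percentile of PEG variance, with a median of 0.437 against 0.0371. The lists share 72 of their 200 IDs, and each shares 135 with the 200 members. The share of 54% was 37.5% without the PEG control pair and 65% without the PEG-1 pair.

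Differences between replicate numbers were tested over all IDs. A model with a term for each group and for the replicate number within each experiment was fitted to the 36410 IDs with enough counts, and edgeR's quasi-likelihood test was adjusted by Benjamini-Hochberg with a threshold of 0.05. Adding the number terms lowered the biological coefficient of variation from 32.2% to 18.7%. In PEG, replicate 2 differed from replicate 1 for 1432 IDs (3.93%). In EUE, replicate 2 differed from 1 for 4548 IDs (12.5%), replicate 3 from 1 for 2567 (7.05%) and replicate 3 from 2 for 4598 (12.6%). Replicate 2 was higher for 568 IDs (1.56%) and lower for 864 (2.37%) in PEG, with 16 and 74 members among them. In EUE, replicate 2 was above 1 for 2313 IDs (6.35%) and below for 2235 (6.14%), with 113 and 26 members. Replicate 3 was above 1 for 930 (2.55%) and below for 1637 (4.50%), with 11 and 10 members, and above 2 for 2148 (5.90%) and below for 2450 (6.73%), with 26 and 87 members. The rule chose the members on the same differences between replicates, so nothing is read from the members' counts.

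These counts moved with single libraries. In PEG the count was 135 and 122 without control replicate 1 or 2, and 57 and 61 without PEG-2 replicate 1 or 2. For EUE replicate 2 against 1 it was 2246 and 1 without control replicate 1 or 2, 40 and 2428 without epiline replicate 1 or 2, and 2905 and 3006 without PEG-2 replicate 1 or 2. For EUE replicate 3 against 1 it was 1611 and 195 without control replicate 1 or 3, 21 and 5 without epiline replicate 1 or 3, and 763 and 804 without PEG-2 replicate 1 or 2. For EUE replicate 3 against 2 it was 406 and 481 without control replicate 2 or 3, 2826 and 2416 without epiline replicate 2 or 3, and 2871 and 2947 without PEG-2 replicate 1 or 2. The PEG libraries enter the EUE counts through the shared estimate of spread.

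The epilines were compared with their controls in a fit with 1 mean per group over all 12 libraries. For each of the 3 epilines the test called 0 of 36410 IDs (0%), and so no member. For PEG-1, PEG-2 and the EUE epiline in turn the smallest adjusted p was 0.749, 1 and 0.138, and 1310, 684 and 1519 IDs had an unadjusted p under 0.05, among them 9, 1 and 3 members. DESeq2 called 145, 18 and 383 IDs and no member. With EUE epiline replicate 1 left out edgeR called 205 IDs in the EUE comparison. A fit with the replicate block called 1, 0 and 69 IDs in these comparisons, again without a member. Same-numbered EUE libraries were taken as pairs, which makes the 69 the blocked value of that comparison. Since the members were chosen for a wide spread within groups, and IDs raised in all lines were left out, their absence among the calls is not read as a result.

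The rule chose the members for wide gaps between replicates, so the gaps between lines are given beside them as a description only. The larger of the within-group ranges exceeded the difference of the group means for 192 of the 200 members in PEG-1, for 193 in PEG-2 and, in the EUE epiline, for 199, beside 81.0%, 84.5% and 98.3% of all 7065 IDs. The standard error of the members' log2 fold changes had a median of 0.74 in both PEG comparisons and 0.60 in the EUE one, against 0.40, 0.40 and 0.32 over all tested IDs. The median log2 difference of the members was -0.67 for PEG-1, -0.15 for PEG-2 and -0.15 for the EUE epiline. All libraries of PEG-1 lay above both controls for 2 members and below for 12, where 18.4% and 12.2% of all tested IDs did so. For PEG-2 the counts were 1 and 7 (13.9% and 12.2% of tested IDs) and for the EUE epiline 2 and 1 (5.11% and 1.70%).

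ERF60779-ERC24885 had the smallest p among members that were higher in an epiline, in all 3 comparisons, and did not pass the threshold in any. It stood at 9.42 and 22.6 CPM in the PEG control, at 28.0 and 157 CPM in PEG-1 and at 17.96 and 86.9 CPM in PEG-2. Levels in the EUE control were 5.27, 9.67 and 2.15 CPM and those in the EUE epiline 13.1, 30.1 and 57.7 CPM. PEG-1 and the EUE epiline did not overlap their controls, whereas PEG-2 replicate 1 lay between its 2 controls. The log2 difference was 2.47 in PEG-1 (SE 1.02, edgeR adjusted p = 1), 1.73 in PEG-2 (SE 0.99, edgeR adjusted p = 1) and 2.55 in the EUE epiline (SE 0.84, edgeR adjusted p = 0.623). Single libraries decided the PEG values, since the log2 difference was 0.74 without PEG-1 replicate 2 in the first comparison and 0.06 without PEG-2 replicate 2 in the second.

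Among members lower in an epiline, ERF75192 had the smallest p in PEG-1, at 14.1 and 6.43 CPM against 43.3 and 29.6 CPM in the control (log2 difference -1.87, SE 0.68, edgeR adjusted p = 1). ERF73692 had it in PEG-2, at 8.04 and 13.03 CPM against 44.0 and 23.4 CPM (log2 difference -1.66, SE 0.75, edgeR adjusted p = 1). ERF57346 had it in the EUE epiline, at 3.88, 3.43 and 3.23 CPM against 4.57, 32.9 and 2.06 CPM (log2 difference -1.90, SE 0.77, edgeR adjusted p = 0.973). In the last case only EUE control replicate 2 stood high and the groups overlapped. The log2 difference of ERF57346 was -0.000488 without that library.

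The PEG and EUE experiments were compared as wholes. The minimum of 20 CPM over all 12 libraries bears on this contrast, since 78 members (39%, against 8.96% of all 7065 IDs) were under it in the PEG mean and passed through EUE, and 18 (9%, against 3.86%) passed through PEG alone. Such members had to differ, so the members' counts and medians are given as a description and nothing is read from them. Line, selection and experiment cannot be told apart in it. edgeR called 7448 of 36410 IDs (20.5%), 3724 higher (10.2%) and 3724 lower (10.2%) in PEG. Of the 200 members 62 passed (31%), 23 higher and 39 lower in PEG. The median log2 difference of PEG from EUE was -0.97 over the members and -0.05 over all tested IDs, and it was negative for 154 members. All PEG libraries lay above all EUE libraries for 12 members and below for 11 (4.76% and 7.36% of tested IDs).

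The sign of the fitted log2 difference of PEG from EUE was also counted by replicate pattern, as a description. Members that passed the minimum of 20 CPM through a single experiment had to differ here too. Their split over the patterns is not given, and nothing is read from the members' signs, medians or counts. Among the 104 members with PEG replicate 1 and EUE replicate 2 high, all 104 had a negative value, with a median of -1.13. Over all 775 IDs with that pattern 85.3% were negative, with a median of -0.41. Over all 7065 IDs, whatever their pattern, 45.0% were negative and 55.0% positive, with a median of 0.04. Of these 7065, 7.43% passed as lower and 12.2% as higher in PEG. Of the 104, 27 (26.0%) passed as lower in PEG, against 18.2% of the 775. Among the 33 with PEG replicate 2 high, 32 had a positive value, with a median of 1.53. Over all 1589 IDs with that pattern 83.3% were positive, with a median of 0.33. Of the 33, 19 (57.6%) passed as higher in PEG, against 26.2% of the 1589. The 11 with PEG replicate 1 and EUE replicate 3 high were split into 6 positive and 5 negative values, and 52.9% of all 452 IDs with that pattern were positive. The number of members that passed was 41 without EUE control replicate 2 and 29 without EUE epiline replicate 2. Over all IDs the count of 7448 became 6016 and 5058 in these settings. Leaving out a PEG library also moved both counts, and left its group with 1 library.

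The member with the smallest p among those higher in PEG was ERF92527-ERC32349. It stood at 165 and 455 CPM in the PEG control, 434 and 506 CPM in PEG-1 and 382 and 719 CPM in PEG-2. Its EUE control levels were 19.9, 6.14 and 44.7 CPM and those in the EUE epiline were 28.2, 22.4 and 34.8 CPM. No EUE library reached the lowest PEG library. The means were 443 ± 180 and 26.0 ± 13.2 CPM (SD, n = 6 each), a log2 difference of 4.17 (SE 0.49, edgeR adjusted p = 0.000220).

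ERF92184 had the smallest p among those lower in PEG. It stood at 4.35 and 0.106 CPM in the PEG control, 0.914 and 0.732 CPM in PEG-1 and 1.72 and 0.718 CPM in PEG-2. The EUE control libraries had 98.7, 98.6 and 108 CPM and the EUE epiline libraries 109, 123.3 and 77.5 CPM. Its spread lay in the PEG control, where replicate 1 exceeded replicate 2 by 41.2-fold at 4 counts in the latter, and its EUE libraries were close together. The means were 1.42 ± 1.53 and 103 ± 15.2 CPM (SD, n = 6 each). It passed the minimum of 20 CPM through the EUE libraries alone and so had to be low in PEG, and its levels are given with no test.

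The IDs themselves held little else. Joined IDs made up 134 of the members (67%, against 70.1% of all 7065 IDs), ERF IDs alone 45 (22.5%, against 17.9%) and ERC IDs alone 21 (10.5%, against 12.0%). Whether members lie near each other in the numbering was described with a window of 10. Of the members 25 (12.5%) had another member within 10 ID numbers, and of the other IDs 668 (9.73%) had a member so near. Whether neighbouring numbers are neighbouring genes is not given in the sources used here. None of the IDs matched the RefSeq gene table of the species, with 0 matches, so no gene name, role or sequence is given.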

How the data were processed

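Polysomal RNA of leaf 4 was sequenced in 12 libraries of 5 groups. The deposited table holds raw read counts per transcript ID, as the authors made them. GSNAP and SAMtools are listed, with no version, in the submitters' processing notes. The sources used here give no genome, annotation, counting tool or strand setting. All 12 columns were matched to samples by name, and 0 columns were unused. Totals ran from 36210542 to 42696798 counts per library, and intervals or variances from sampling cover counting error only. The members, comparisons and lists were chosen with earlier results of these data known.

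CPM values were computed from column totals, with a pseudocount of 0.5 CPM before the logarithm. Tests used edgeR 4.0.16 in R 4.3.3, which fitted the 12 libraries together after TMM scaling and a filter (filterByExpr, at least 10 counts), with its quasi-likelihood F-test. Benjamini-Hochberg adjustment was over 36410 IDs, and standard errors were taken from the F statistic. Other settings were DESeq2 1.42.0, its size factors, no filter, halved counts, the replicate number as a block, other pseudocounts, minimum levels, list sizes and scaling for the choice of members, and each library left out. Levels and correlations used Python 3.11.15 with numpy 2.4.6 and pandas 2.3.3. The fits and the choice of members were tested on simulated data with known changes.

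Same-numbered EUE libraries were checked for pairing over 7065 IDs and had r of 0.700, 0.787 and 0.609, each over 0.1, so the numbers were taken to pair them. This rests on the data, since no label states the meaning of a number. The PEG groups have only 2 numbers and were taken to share a number only. Over the same IDs r of their replicate differences was 0.735, 0.570 and 0.557, which is over 0.1 as well.

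Named IDs were those with the largest variance, those nearest to the threshold on either side, those with the largest consistent difference by replicate number in each direction, those with the smallest p in each direction of each comparison, and the 2 most like the first. The members were not trimmed after the choice.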

Additional observations from a re-analysis of the deposited data

Results flagged for a closer look

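For 133 members (66.5%) replicate 2 differed from 1 in the same direction in all 3 PEG groups and oppositely in both EUE groups. The same held for 30.7% of all IDs with a mean of 20 CPM or more. As the rule chose the members on differences between replicates, nothing is read from this count. The difference between the experiments was not tested for the 133 members. The named members among these are given with the mean log2 difference of replicate 2 from replicate 1 in PEG, the same in EUE, and EUE minus PEG. For ERF81692-ERC28464 these were -3.66 and 1.96, a gap of 5.62. For ERF54651 they were -1.13 and 2.28, a gap of 3.41. For ERC40835 they were 3.53 and -0.79, a gap of -4.32, although its EUE levels were at most 3.56 CPM. For ERF72871 they were 3.63 and -0.59, a gap of -4.23, with EUE levels of at most 5.21 CPM. For ERF80604-ERC49201 they were 1.22 and -1.49, a gap of -2.72. For ERF88432-ERC28564 they were 0.74 and -1.62, a gap of -2.36. For ERF92527-ERC32349 they were 0.87 and -0.97, a gap of -1.84. The difference was not tested in any of these, and a shared number in PEG and EUE is not known to mark the same thing.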

How the results depend on the processing

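Of the members, 197 and 189 were chosen again with a pseudocount of 0.1 or 2 CPM, 181 with TMM-scaled totals, 185 with no IDs left out, and 163 to 184 with 1 library left out. A minimum of 10 or 50 CPM kept 124 and 68. The mean same-number r in EUE was 0.672 with no IDs left out and 0.513 to 0.781 with 1 library left out. In PEG it was 0.660 to 0.860, and between PEG and EUE -0.600 to -0.326, with 1 library left out. The share of PEG-chosen IDs above the 90th percentile in EUE was 37.5% to 65%. The share of members with PEG replicate 1 and EUE replicate 2 high, a result chosen after seeing the data, was 30% at a minimum of 50 CPM. It was 45% with 400 members, 41.5% with TMM-scaled totals and members chosen again, and 52% to 64% with 1 library left out. A left-out library only loosens the pattern for the same members, so that range could not fall below 52%. The 2 settings without EUE control or EUE epiline replicate 2 give no value. TMM scaling moved the median of all IDs in EUE control replicates 2 and 3 to -0.12 and 0.13 (log2), and of the same 104 members 102 still had replicate 2 highest there. The cause was not tested in any of these.

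In the line comparisons edgeR called 0 IDs. DESeq2 called 145 IDs for PEG-1, 18 for PEG-2 and 383 for the EUE epiline, where no filter gave 27. With the replicate block the counts were 1, 0 and 69, and the PEG block is a shared number only. With 1 library left out both PEG comparisons had 0 and the EUE comparison had 0 to 205. No member was called under any of these settings. Where a group is left with 1 library, it is assumed to vary like the other groups. The experiment comparison had 4112 to 8810 calls. For the replicate numbers the counts were 57 to 1857 in PEG, and in EUE 1 to 5236 for 2 against 1, 5 to 3173 for 3 against 1 and 406 to 5313 for 3 against 2. The PEG number count was 2514 without a filter and 2693 with DESeq2. Among the members, the 62 called between experiments were 109 with DESeq2, which called 10094 of all IDs. With 1 EUE library left out they were 29 to 85, beside 5058 to 7924 of all IDs. The 90 members of the PEG number comparison were 141 without a filter and 146 with DESeq2, beside 2514 and 2693 of all IDs. The 21 of EUE 3 against 1 were 41 in both, and no count over all IDs is given for these. Nothing is read from these counts of members. With 1 library left out the members' counts were 15 to 142 for the PEG number, and in EUE 0 to 145 for 2 against 1 (139 with all libraries), 2 to 52 for 3 against 1 and 32 to 150 for 3 against 2 (113). The balance of higher and lower IDs turned for EUE 3 against 1 without EUE epiline replicate 3 (5 and 0), and for EUE 2 against 1 with no filter (2523 and 2547) or without EUE epiline replicate 1 (12 and 28), EUE control replicate 3 (2253 and 2334) or EUE epiline replicate 3 (2282 and 2368). Groups of 2 or 3 libraries limit all of these values.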
